A study of Sus scrofa with 24 samples.

Results

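This report covers 9 genes for glutamate receptors that do not belong to the AMPA or NMDA classes, among the 38882 genes listed for piglet hippocampus. They are the metabotropic receptor genes GRM3, GRM5, GRM7 and GRM8 and the kainate receptor subunit genes GRIK1, GRIK2, GRIK3, GRIK4 and GRIK5. Their rows were taken by Entrez identifiers and pig symbols, but the genes were chosen with earlier results of these data known. Hippocampal poly(A) RNA was sequenced from 24 piglets of a PIC Camborough dam and a PIC 359 sire, all killed at 14 days of age. Piglets were small (SGA) or appropriate (AGA) for gestational age and were fed a control formula with fat as triglycerides (CON) or a formula with hydrolyzed fat (HF), which gave 4 groups of 6: AGA CON, SGA CON, AGA HF and SGA HF. An SGA and an AGA piglet of the same sex came from each of 12 litters, 6 litters per diet, and the litters arrived in 2 cohorts, each with both diets. The libraries held 6017336 to 9284355 reads counted in genes. RNA was extracted from dissected hippocampal tissue with its mix of cell types, so that fewer cells of a type and less RNA per cell cannot be told apart in these values.

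Glutamate acts on ion channels that open within milliseconds and on metabotropic receptors, which signal more slowly through G proteins. Group I metabotropic receptors, such as mGlu5 (GRM5), couple to phospholipase C. Group II receptors, such as mGlu3 (GRM3, found on neurons and astrocytes), and group III receptors, such as mGlu7 (GRM7) and mGlu8 (GRM8), couple to inhibitory G proteins and often lower transmitter release. Kainate receptors are ion channels: GluK1, GluK2 and GluK3 (GRIK1, GRIK2, GRIK3) can form channels on their own, whereas GluK4 and GluK5 (GRIK4, GRIK5) bind agonist tightly but need a partner of the first kind. In the hippocampus kainate receptors are best known from the mossy fibre synapses onto CA3 pyramidal cells.

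The gene models that the reads were counted on (build Sscrofa10.2) differed in completeness. GRM5 lies on the minus strand of chromosome 9 from 24418550 to 24660127, with 6 exons that cover 1191 bases. GRM3 lies on the same strand of chromosome 9 from 103209681 to 103422774, with 5 exons over 4091 bases. GRM7 is on the plus strand of chromosome 13 from 70580925 to 71026770 (9 exons, 2059 bases), and GRM8 is on the plus strand of chromosome 18 from 22609857 to 23086371 (8 exons, 2313 bases). GRIK1 is on the minus strand of chromosome 13 from 203411219 to 203897606 (19 exons, 8509 bases). GRIK2 is on the plus strand of chromosome 1 from 77317681 to 77555955 (11 exons, 3357 bases). GRIK3 and GRIK5 are both on chromosome 6, GRIK3 on the minus strand from 85950875 to 86193744 (16 exons, 9018 bases) and GRIK5 on the plus strand from 45891687 to 45922679 (9 exons, 2518 bases). GRIK4 is on the plus strand of chromosome 9 from 53199184 to 53306028 (15 exons, 2778 bases). The models of GRM5, GRM7, GRM8, GRIK4 and GRIK5 cover fewer bases than the coding sequence usual for these receptors in mammals, so they are likely incomplete. A level per length below refers to these models only, and missing exons can shift it. A gene without a symbol lies on the opposite strand inside the span of GRM8, and reads were counted by strand.

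All libraries carried hippocampal markers, with PROX1, ZBTB20, FIBCD1 and LHX2 summing to between 293 and 527 CPM (library-scaled read counts, with TMM factors), although ZBTB20 itself was at most 0.165 CPM. Markers of thalamus (TCF7L2 and LHX9 summed) stood at 12.3 to 28.5 CPM. SGA HF replicate 4 stood apart in pituitary markers (GH1, PRL and POMC summed), at 362 CPM against 19.0 to 36.8 CPM in the other libraries, and in that library GRIK5 was at 78.7 CPM, its highest value. AGA CON replicate 2 had the lowest SLC17A7, the vesicular glutamate transporter of cortical and hippocampal neurons, at 1577 CPM against 2138 to 4956 CPM in the others, and the highest summed astrocyte markers, at 11432 CPM. Its GRIK2, at 54.2 CPM, was the lowest of all libraries. The part of these differences in the receptor values was not tested. The counts of receptor genes called by edgeR for size, for diet and for their interaction were also taken without each litter in turn.

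Per length, the kainate genes GRIK5 and GRIK2 stood highest of the 9, GRM3 led the metabotropic genes, and GRM5 was lowest. The 5 kainate genes summed to 70.2 ± 4.39 RPKM (CPM per kilobase of exon, SD, n = 24) and the 4 metabotropic genes to 22.6 ± 2.51 RPKM. The metabotropic sum is not that of the whole class, since it leaves out genes such as GRM2 (5.64 RPKM) and GRM4 (4.91 RPKM). Both sums include short models, those of GRM5, GRM7 and GRM8 and those of GRIK4 and GRIK5. GRIK5 was highest, at 26.0 ± 3.09 RPKM (SD, n = 24), followed by GRIK2 at 19.3 ± 2.16 RPKM. GRIK5 was above GRIK2 in 23 of 24 libraries. The first place of GRIK5 rests on one of the short models. Without scaling to length, GRIK3 was first at a mean of 126 CPM, followed by GRM3 at 68.3 CPM, GRIK5 at 65.6 CPM and GRIK2 at 64.8 CPM.

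GRM3 came next at 16.7 ± 1.67 RPKM and stood below GRIK2 in 20 of 24 libraries. GRIK3 followed at 14.0 ± 2.12 RPKM, below GRM3 in 21 libraries, and GRIK4 at 8.81 ± 1.01 RPKM, below GRIK3 in 23 libraries. GRIK4 was 2.86 times as high as the next gene, GRM7, and above it in all 24 libraries.

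At the low end, GRM7 had 3.08 ± 0.81 RPKM and GRM8 2.30 ± 0.91 RPKM, with GRM7 the higher in 20 of 24 libraries. GRM8 and GRIK1 (2.09 ± 0.37 RPKM) could not be ordered, since GRM8 was higher in 10 libraries and GRIK1 in the rest. GRM5 came last at 0.51 ± 0.29 RPKM, below GRIK1 in every library. The order of the 9 means was the same in all 4 groups. GRIK5 stood at the 78.9th percentile of level per length among the 16326 genes tested, GRIK2 at the 73.7th and GRIK1 at the 31.4th.

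**Figure D1:**
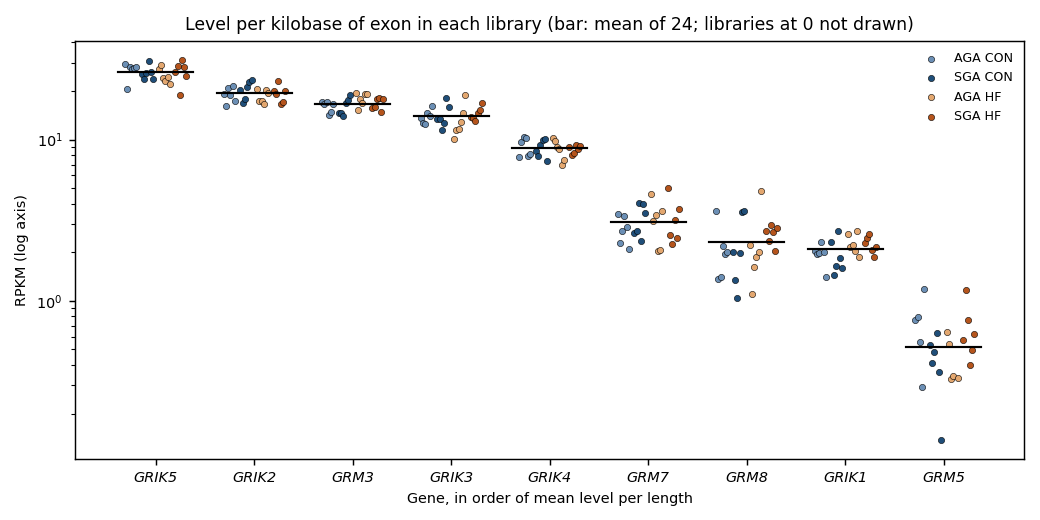
Level per kilobase of exon (RPKM, log axis) of the 9 receptor genes in each library, coloured by group, with a bar at the mean of 24 libraries. GRIK5 is highest at a mean of 26.0 RPKM, GRM8 and GRIK1 overlap near 2 RPKM, and GRM5 is lowest at 0.51 RPKM.

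Within the kainate family, GRIK5 made up 37.0% ± 3.33 (SD, n = 24) of the summed level per length, GRIK2 27.5% ± 2.62, GRIK3 19.9% ± 2.73, GRIK4 12.6% ± 1.5 and GRIK1 2.99% ± 0.53. GRIK4 and GRIK5, the subunits that need a partner, together held 49.6% ± 3.80 of it, between 41.2% and 55.7% in single libraries. The joint share averaged 50.7% (AGA) and 48.9% (SGA) on CON and 49.8% (AGA) and 49.1% (SGA) on HF. The SD within groups ran from 1.35 (AGA CON) to 4.97 (AGA HF), the groups overlapped, and the difference was not tested. These shares also rest on the short models of GRIK4 and GRIK5.

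GRM5 was barely detected by its model. It received 110 reads over all 24 libraries, with 0 to 10 in each. AGA CON piglets ranged from 0 to 1.40 CPM with a median of 0.78, SGA CON from 0.16 to 0.76 with a median of 0.53, AGA HF from 0 to 0.76 with a median of 0.40, and SGA HF from 0.48 to 1.39 with a median of 0.71. The groups overlapped, 2 libraries were at 0, and 3 counts correspond to 0.323 to 0.499 CPM depending on the library (by library total, without TMM factors). Only 2 libraries reached 1 CPM, so GRM5 did not pass the filter (1 CPM in at least 3 libraries) and the tests below concern the other 8 genes.

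These 8 genes had 968 reads (GRM8) to 22797 reads (GRIK3) in total, and their spread between piglets of a group was unequal. GRM3 was the steadiest, with a coefficient of variation within groups of 9.45%, and GRIK2, GRIK4 and GRIK5 lay at 11.3%, 12.2% and 12.4%. GRIK3 (15.9%) and GRIK1 (17%) were also below the median of 19.3% over all genes tested. GRM7 (27.5%) and GRM8 (41.6%) were above it, while counting error alone gave 15.1% for GRM7 and 17.2% for GRM8.

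**Figure D2:**
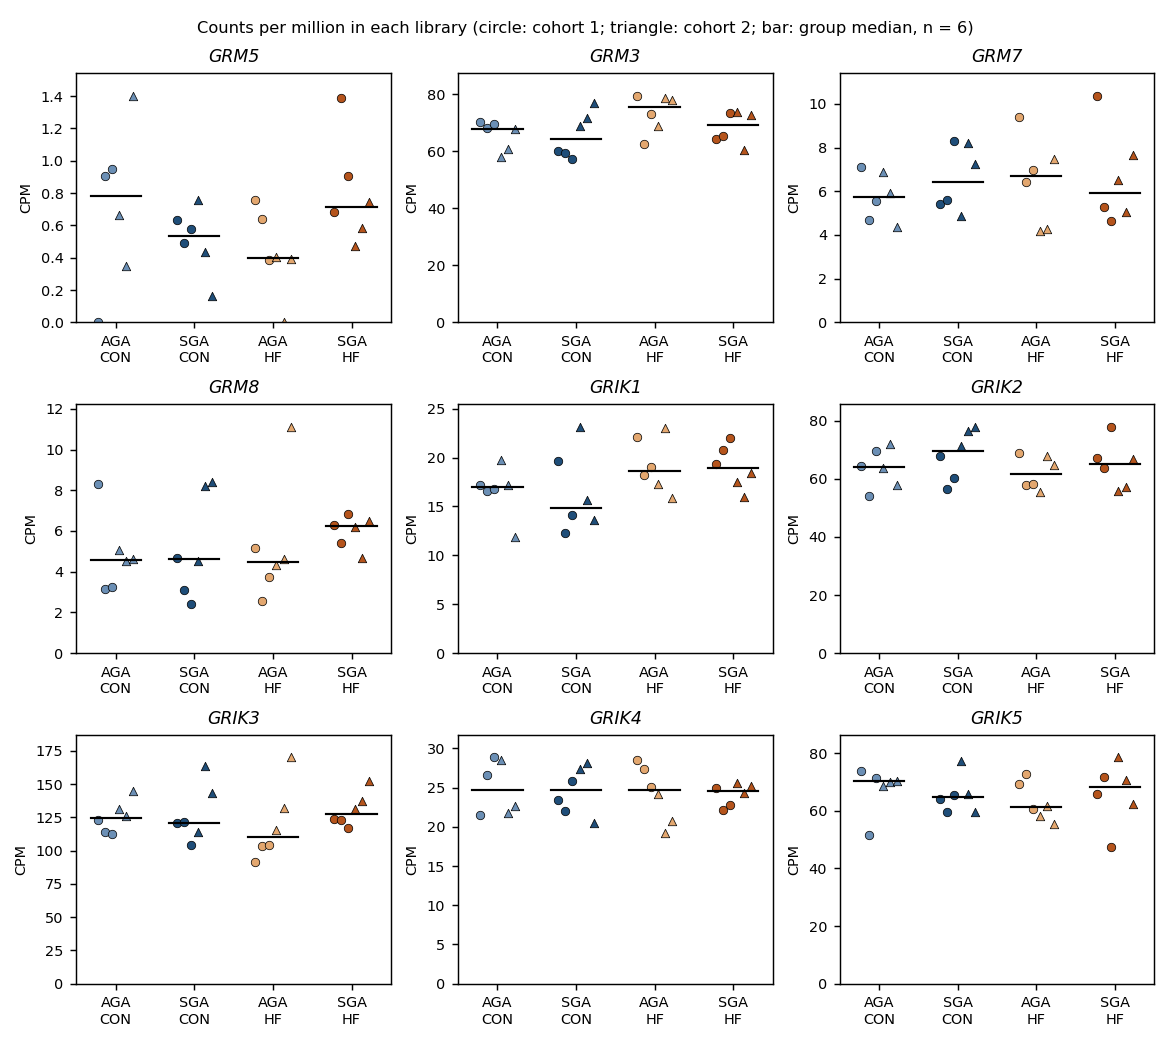
CPM of each receptor gene in every library, by group (6 piglets each), with circles for cohort 1, triangles for cohort 2 and a bar at the group median. The 4 groups overlap for every gene, and GRIK3 triangles sit mostly above the circles.

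The first comparison asked whether the receptor genes differed with size at birth. None of the 8 passed the study's heat map threshold of FDR p under 0.4 for size (edgeR quasi-likelihood test, Benjamini-Hochberg over 7 contrasts), beside 0.478% of all genes tested. None passed FDR p under 0.05 or an unadjusted p under 0.05 either, the latter beside 10.6% of all genes. DESeq2 and limma voom called 0 of the 8 as well, beside 1.29% and 0.325% of all genes. Of the 8 estimates 3 were above 0 and 5 below, with a median log2 fold change of -0.04 against 0.00 over all genes.

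The intervals were narrow for the abundant kainate genes. GRIK2 was 56.0 to 78.1 CPM in SGA piglets with a median of 67.0 and 54.2 to 72.1 CPM in AGA piglets with a median of 64.0 (n = 12 each), so the ranges overlapped. Its fitted fold change was 1.05 (95% interval 0.971 to 1.13, edgeR adjusted p = 0.865), the smallest FDR p of the 8. GRIK3 was 104 to 163 CPM in SGA piglets (median 123) and 91.1 to 170.3 CPM in AGA piglets (median 119), with a fold change of 1.06 (0.951 to 1.17). The AGA piglets thus held both the lowest and the highest GRIK3 value.

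GRIK5 had a fold change of 0.963 (0.882 to 1.05) and GRIK4 of 0.987 (0.874 to 1.11). GRIK1 had 1.02 (0.870 to 1.2). Among the metabotropic genes GRM3 had 0.956 (0.875 to 1.04), GRM7 0.904 (0.748 to 1.09) and GRM8 0.958 (0.719 to 1.28). The GRM8 interval was the widest of the 8.

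Over the 12 litters none of the 8 genes had an exact sign-flip p under 0.05 (two-sided, every sign pattern of the litters), beside 12.6% of all genes tested. GRIK2 was higher in the SGA littermate in 9 of 12 litters, by a mean log2 difference of 0.08 ± 0.20 (SD, exact p = 0.222, adjusted over all genes 0.652). GRIK3 was higher in 7 of 12, by 0.09 ± 0.20 (exact p = 0.170, adjusted 0.592). GRM8 was higher in 7 of 12, by 0.18 ± 0.63 (exact p = 0.334, adjusted 0.740).

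The exact p of the other 5 genes lay between 0.411 for GRM3 and 0.918 for GRIK4. The sign of the size difference of GRM7, GRM8, GRIK1 and GRIK5 in the model with surrogate variables was opposite to that of the mean littermate difference. For GRM7 these were -0.14 ± 0.13 (SE) in the model and 0.11 ± 0.44 (SD, n = 12) between littermates, neither distinguishable from 0.

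**Figure D3:**
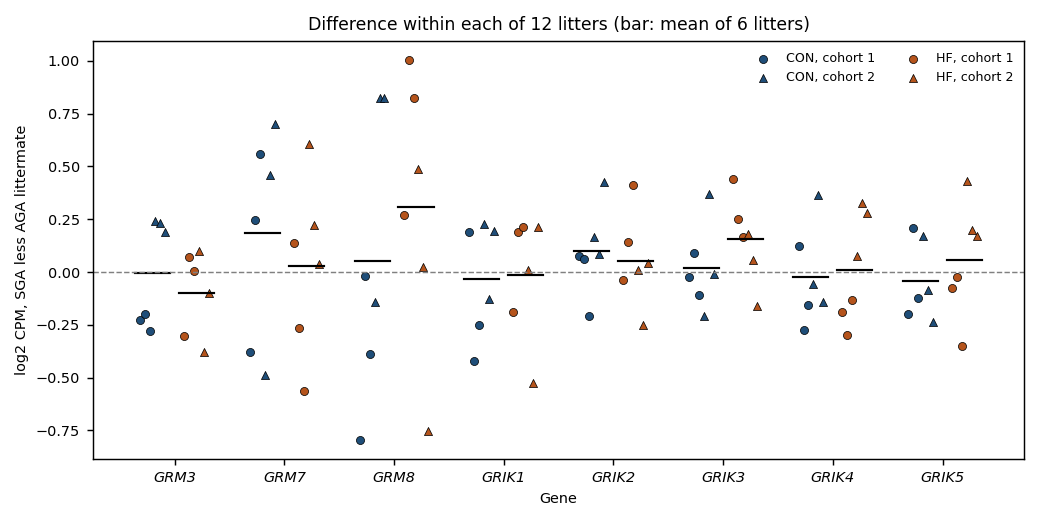
Difference in log2 CPM between the SGA and the AGA piglet of each litter, for 8 genes, with 6 CON and 6 HF litters side by side, marker shape for cohort and a bar at the mean of 6. Differences lie on both sides of 0 for every gene, and GRM8 spreads most, with an SD of 0.63 over the 12 litters.

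The second comparison asked whether the receptor genes differed with the fat of the formula. None of the 8 was called for diet at FDR p under 0.4, beside 0.159% of all genes, and none at FDR p under 0.05, with 0 calls also by DESeq2 (beside 0.539% of all genes) and limma voom (0.0613%). At an unadjusted p under 0.05 there was 1 of 8, GRIK2, beside 7.09% of all genes. GRIK2 ranged from 55.7 to 77.8 CPM on HF with a median of 64.4 and from 54.2 to 78.1 CPM on CON with a median of 66.1 (n = 12 each). The piglets of the 2 diets covered nearly the same range.

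The model placed GRIK2 at 0.922-fold on HF (95% interval 0.853 to 0.997, edgeR adjusted p = 0.716). Littermates shared a diet, but this model has no litter term and takes piglets as independent. Its intervals and p-values for diet can therefore be too narrow and too small, and the litter is the unit for diet. Over litter means the log2 difference was -0.05 (exact permutation p = 0.476, 6 against 6 litters). Within cohorts the edgeR estimates had opposite signs, 0.08 on the log2 scale in cohort 1 and -0.19 in cohort 2. Of 11 fits with other settings, the GRIK2 estimate changed sign in 1 and had an unadjusted p under 0.05 in 4. These fits draw on the same libraries.

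By litter means, 1 of the 8 genes had an exact permutation p under 0.05 for diet, beside 4.1% of all genes tested. This was GRM3, the group II receptor. Its litter means were 63.4 to 72.5 CPM on CON with a median of 64.6 and 64.2 to 75.7 CPM on HF with a median of 71.6. HF litters were higher at the median and overlapped with CON litters. The fold difference was 1.08 (exact p = 0.0476, two-sided), which did not hold after adjustment over all genes (adjusted p = 1.00) and became 0.05 when litters were exchanged only within their cohort. In the model GRM3 was 1.07-fold (0.975 to 1.17, edgeR adjusted p = 0.836).

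GRIK1, the kainate subunit best known from interneurons, had litter means of 13.0 to 21.7 CPM on CON with a median of 16.2 and 17.4 to 21.0 CPM on HF with a median of 19.6. Litters on HF were on average 1.17-fold higher (exact permutation p = 0.0801, adjusted 1.00). The model estimate was 1.1-fold (0.935 to 1.30, edgeR adjusted p = 0.873). In cohort 1 alone the log2 difference by edgeR was 0.34, with an unadjusted p under 0.05, and in cohort 2 alone it was 0.09, which did not pass. Whether the cohorts differed in this was not tested. Of 11 fits with other settings, 2 gave GRIK1 an unadjusted p under 0.05 for diet.

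Interneuron markers (GAD1, GAD2, SST, PVALB, VIP and LHX6) had a median log2 fold change of 0.06 for diet, and none of 6 was called, with 1 higher at an unadjusted p under 0.05 (beside 7.09% of all genes in either direction). Their summed level spanned 241 to 344 CPM in CON piglets and 226 to 365 CPM in HF piglets. The part of interneuron RNA in the GRIK1 values was not tested.

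The other 5 genes gave folds on HF of 1.17 for GRM7 (0.963 to 1.42), 1.16 for GRM8 (0.859 to 1.58), 1.05 for GRIK5 (0.964 to 1.15), 0.996 for GRIK4 (0.882 to 1.12) and 0.961 for GRIK3 (0.865 to 1.07). Their exact permutation p over litters lay between 0.506 for GRM8 and 0.827 for GRIK3. The median log2 fold change of the 8 genes for diet was 0.08, with 5 above 0, against 0.00 over all genes.

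**Figure D4:**
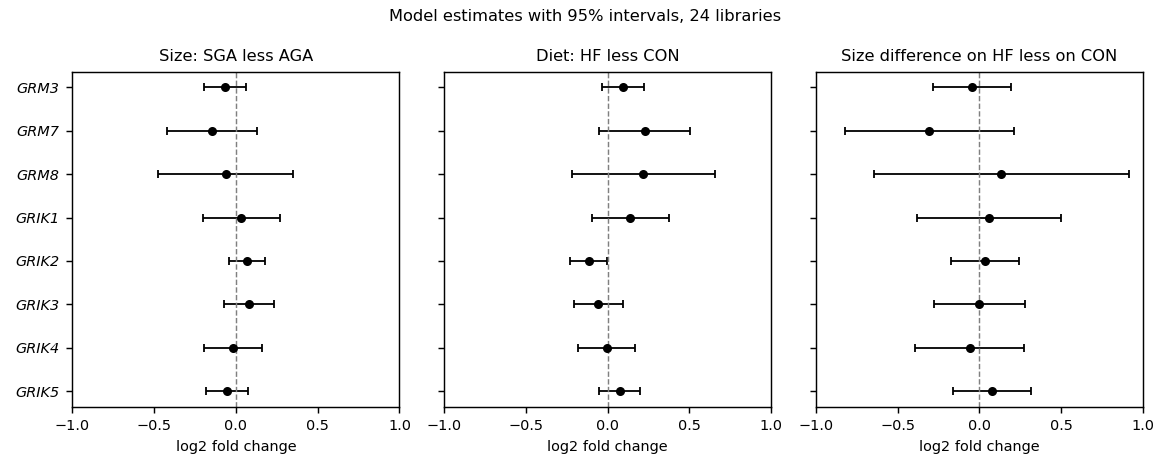
Fitted log2 fold changes of the 8 tested genes with 95% intervals, for size, diet and the difference of the size effect between the diets, from the model on 24 libraries. Every interval includes 0 except that of GRIK2 for diet, which ends at 0.997-fold, and GRM8 has the widest intervals. The model has no litter term, so the diet intervals can be too narrow.

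The third comparison asked whether the size difference depended on the diet. None of the 8 genes was called at FDR p under 0.4, beside 0.049% of all genes, and none had an unadjusted p under 0.05, beside 4.01%. DESeq2 and limma voom called 0 of the 8, beside 0.104% and 0.00613% of all genes. Over the within-litter differences, 6 HF against 6 CON litters, none had an exact permutation p under 0.05, beside 4.36% of all genes. The largest estimate was that of GRM7, a ratio of fold changes of 0.808 (95% interval 0.565 to 1.16, edgeR adjusted p = 0.871). Without litter 5, an HF litter whose SGA piglet had the lowest GRIK5 of all libraries (47.6 CPM), the GRIK5 estimate rose from 0.08 to 0.29 on the log2 scale and passed the threshold (edgeR adjusted p = 0.381), beside 2.05% of all genes in that fit.

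For GRM8, the group III receptor with the widest spread, the 2 cohorts gave opposite signs, a split looked at after the values were seen. In cohort 1 the SGA less AGA log2 difference was 0.27, 1.01 and 0.82 in the 3 HF litters and -0.79, -0.02 and -0.39 in the 3 CON litters. In cohort 2 it was 0.49, 0.02 and -0.75 in the HF litters and -0.14, 0.83 and 0.82 in the CON litters. Both diets had differences on either side of 0 in cohort 2 but not in cohort 1. The edgeR interaction estimate on the log2 scale was 1.22 in cohort 1, with an unadjusted p under 0.05, and -0.80 in cohort 2, which did not pass. Over all libraries it was 0.14 (edgeR adjusted p = 0.972). Whether the cohorts differed in it was not tested. Splits by cohort were not particular to GRM8. For GRM3 the CON litters had -0.23, -0.20 and -0.28 in cohort 1 and 0.24, 0.23 and 0.19 in cohort 2. For GRIK4 and GRIK5 the HF litters were below 0 in cohort 1 and above 0 in cohort 2. The GRM3 size estimate by edgeR in cohort 1 alone was -0.16, with an unadjusted p under 0.05. The share of all genes past that p in a single cohort is not given here.

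The single-group contrasts added no call for the 8 genes. At FDR p under 0.4 none was called for size on CON (beside 0.129% of all genes), for size on HF (0.288%), for diet in AGA piglets (0.0674%) or for diet in SGA piglets (0.0919%). None had an unadjusted p under 0.05 either, beside 6.59%, 8.02%, 6.09% and 5.16% of all genes in the same order. The smallest unadjusted p among these was that of GRM7 for diet in AGA piglets, 1.30-fold on HF (95% interval of the log2 fold change -0.01 to 0.77, edgeR adjusted p = 0.745). GRM7 was 4.20 to 9.40 CPM in AGA HF piglets with a median of 6.69 and 4.34 to 7.12 CPM in AGA CON piglets with a median of 5.74, and the groups overlapped.

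For cohort, 1 of the 8 genes had an exact permutation p under 0.05, beside 12.5% of all genes tested. The count is thus no higher than that share, and the gene is described here for its values. GRIK3, which encodes the low-affinity presynaptic subunit GluK3, had litter means of 106 to 122.2 CPM in cohort 1 with a median of 112, and of 122.5 to 161 CPM in cohort 2 with a median of 139. The 6 litters of cohort 2 all lay above the 6 of cohort 1, by a narrow margin at the boundary. The difference was 1.22-fold (exact permutation p = 0.00216 over 12 litters, the smallest that 6 against 6 litters can give). Adjusted over all genes it was 0.197.

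This comparison was added after the values were seen. An exact p under 0.05 for cohort was found in 12.5% of all genes, and 1.1% had litter means that did not overlap. GRIK3 was the 1 of 8 members past that threshold. Without any 1 litter the log2 difference was 0.24 to 0.32. Each cohort held 3 litters per diet and both sizes, but sex was unequal. The 4 male litters of cohort 1 had 106 to 122.2 CPM and the 2 of cohort 2 had 123.5 to 143.9 CPM, and the 2 female litters of cohort 1 had 112.9 to 117.8 CPM and the 4 of cohort 2 had 122.5 to 161 CPM. The parts of sex and of cohort in the GRIK3 values were not tested.

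In single libraries GRIK3 ranged from 91.1 to 123.8 CPM in cohort 1 and from 113.7 to 170.3 CPM in cohort 2. GRM8 was also higher in cohort 2 at the mean, 1.34-fold, with overlapping litters (exact permutation p = 0.0887, adjusted 0.465). The other 4 kainate genes had exact p between 0.444 and 0.641 for cohort. Sex gave no exact p under 0.05 for the 8 genes, beside 5.08% of all genes. The lowest was that of GRIK3, with males at 0.903-fold (exact permutation p = 0.184).

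**Figure D5:**
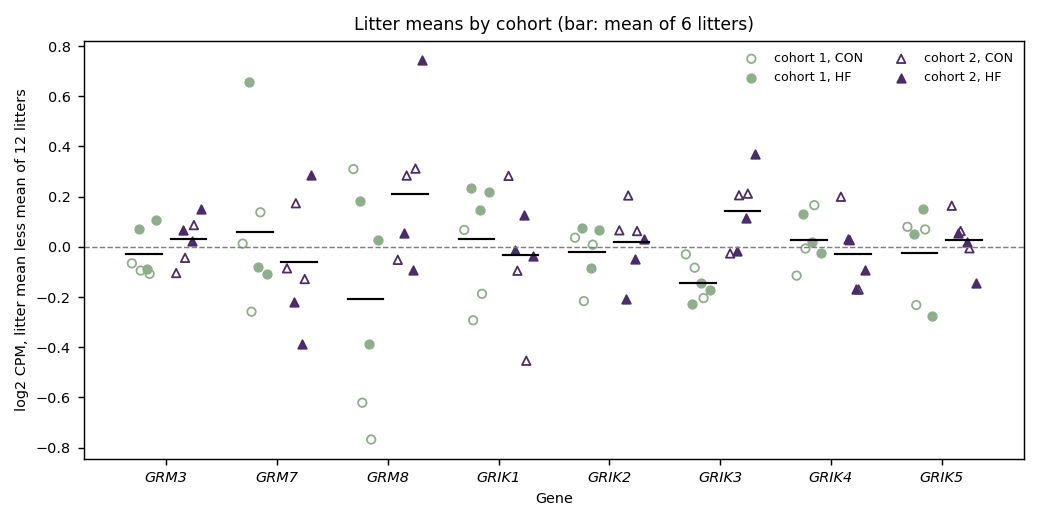
Mean log2 CPM of each of 12 litters, relative to the mean of all litters, for 8 genes, with circles for cohort 1 and triangles for cohort 2, open for CON and filled for HF, and a bar at the mean of 6 litters. For GRIK3 all 6 litters of cohort 2 lie above the 6 of cohort 1, while the cohorts overlap for the other 7 genes.

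Piglets differed together in some of these genes. After the mean of each group was taken out, the correlation of log2 CPM over the 24 libraries had a median of 0.11 over the 28 pairs of members, from -0.42 (GRIK3 with GRIK4) to 0.68 (GRM8 with GRIK3). The 24 libraries include littermates and share cohorts, so these are descriptions. GRM8 with GRIK3 gave 0.34 in cohort 1 and 0.79 in cohort 2, and 0.49 without the 2 libraries farthest from the GRM8 median.

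Of 12362 other genes with a symbol, the one most like GRM8 was GRM4, another group III metabotropic receptor gene (r = 0.84 over 24 libraries, rank correlation 0.73). It was 0.73 in cohort 1, 0.90 in cohort 2 and 0.74 without the 2 farthest libraries. AGA HF replicate 6 had the highest GRM8 (11.1 CPM), GRM4 (39.4 CPM) and GRIK3 (170.3 CPM) of all libraries. It also had the highest SLC17A6, a vesicular glutamate transporter of subcortical neurons (22.7 CPM against 3.93 to 15.5 CPM in the others, chosen after its values were seen).

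In that library the summed hippocampal markers were the lowest, at 293 CPM against 312 to 527 CPM, while the thalamic markers stood at 13.9 CPM, within the range of the others. Its summed meningeal fibroblast markers were the highest, at 74.0 CPM against 33.6 to 69.5 CPM. SGA CON replicate 6 was next in GRM8 (8.38 CPM), in GRM4 (35.8 CPM) and in the meningeal fibroblast markers (69.5 CPM), and had the highest summed hippocampal markers (527 CPM) and the highest SLC17A7 (4956 CPM). The part of tissue composition in these values was not tested.

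GRIK5 was most like ABCA3, a lipid transporter gene (r = 0.91, with 0.91 in cohort 1 and 0.92 in cohort 2, and 0.80 without the 2 farthest libraries). GRIK2 was most like WWP1, a ubiquitin ligase gene (0.84), and GRM7 most like SIPA1L1, which encodes a synaptic Rap regulator (0.80). GRIK3 was most like ANK1, the ankyrin 1 gene (0.78). GRIK1 was most like EXOC8, an exocyst subunit gene (0.76), GRIK4 like VANGL1, a planar cell polarity gene (0.76), and GRM3 like ST5 (0.75). Each is the highest of 12362 values and was not tested.

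The rest of the glutamate receptor pathway was read from lists of genes with known roles. Of the other metabotropic receptors, GRM2 (group II) was at 5.64 RPKM and GRM4 (group III) at 4.91 RPKM, both between GRIK4 and GRM7. GRM6, known from the retina, did not pass the filter. Neither of the 2 tested was called for size, diet or their interaction. GRM4 had log2 fold changes of -0.09 ± 0.12 (SE) for size and -0.01 ± 0.13 for diet.

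Among 22 tested partners of metabotropic receptors (such as Homer and Shank scaffolds, G protein subunits, RGS proteins and phospholipase C), none was called for size, with 3 higher and 1 lower at an unadjusted p under 0.05, beside 10.6% of all genes in either direction. The median log2 fold change was 0.04 against 0.00 over all genes. The smallest p for size were those of SHANK1, a postsynaptic scaffold (0.16 ± 0.05, SE, edgeR adjusted p = 0.471), and GNAO1, the gene of an abundant neuronal G protein (0.11 ± 0.04, adjusted p = 0.574). GNAI1, an inhibitory G protein subunit, had -0.17 ± 0.07 (adjusted p = 0.683).

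For diet none of the 22 was called, with 2 higher and 3 lower at an unadjusted p under 0.05, beside 7.09% of all genes in either direction, and a median of -0.0048. RGS4, which shortens G protein signals, had 0.28 ± 0.08 on HF (edgeR adjusted p = 0.446) and PICK1, which binds mGlu7, had 0.21 ± 0.08 (adjusted p = 0.622). SHANK1 had -0.12 ± 0.05 (adjusted p = 0.609) and GNAO1 -0.10 ± 0.04 (adjusted p = 0.626).

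Among 8 tested partners of kainate receptors none was called, with 1 higher and 1 lower at an unadjusted p under 0.05 for size (beside 10.6% of all genes) and likewise for diet (beside 7.09%). The medians were -0.04 for size and -0.06 for diet. ADAR, an RNA editing enzyme, had 0.13 ± 0.04 for size (edgeR adjusted p = 0.585) and -0.10 ± 0.04 for diet (adjusted p = 0.700). C1QL2, a mossy fibre protein that binds kainate receptors, had -0.24 ± 0.11 for size (adjusted p = 0.725), and its relative C1QL3 had 0.33 ± 0.11 for diet (adjusted p = 0.567). NETO1, an auxiliary subunit of kainate receptors, was at 12.8 CPM and NETO2 at 1.33 CPM.

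Among 12 tested genes of glutamate supply and removal none was called, with 1 higher and none lower for size (beside 10.6% of all genes) and none either way for diet (beside 7.09%) at an unadjusted p under 0.05. The medians were -0.03 for size and -0.06 for diet. SLC17A7 had 0.14 ± 0.04 for size (edgeR adjusted p = 0.506) and SLC1A2, the main glial glutamate transporter, -0.08 ± 0.07 (adjusted p = 0.876). SLC17A8, another vesicular transporter, had -0.34 ± 0.20 for diet (adjusted p = 0.799).

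For the interaction, 1 metabotropic partner was higher and 1 lower at an unadjusted p under 0.05, beside 4.01% of all genes, 1 kainate partner was higher, and no gene of the other 2 pathway lists passed. Among the marker lists, GFAP of the astrocytes and GH1 of the pituitary were higher at that threshold (named after their values were seen). GH1 rested on 1 library, SGA HF replicate 4, at 306 CPM against at most 5.05 CPM in any other.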

How the data were processed

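Counts of reads per gene were deposited for each of 24 libraries. Per the methods and processing notes, the authors trimmed reads with Trimmomatic 0.33, aligned them with STAR 2.5.2a to Sscrofa10.2 and counted exon reads by strand with featureCounts (Subread 1.5.0). The libraries were stranded and selected for poly(A), and the counts were not normalized. The average RNA quality number of the samples was low, which the methods link to pre-spliced RNA. The part of RNA quality in the levels per length was not tested. The deposited exon length per gene (bases, another value in the files) was used for RPKM. Of the counts, 0.613% to 1.62% per library fell on an entry with no gene identifier and were left out.

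From these counts, genes with 1 CPM in at least 3 libraries were kept (16326 genes). CPM for this filter used TMM factors over all listed genes. Library sizes and TMM factors were then computed on the kept genes. Quasi-likelihood tests of edgeR 4.0.16 (R 4.3.3) were fitted with the 4 groups, sex and 5 surrogate variables (sva 3.50.0), with Benjamini-Hochberg adjustment over 7 contrasts. The study used these terms in limma voom, which served as an alternative (limma 3.58.1), as did DESeq2 1.42.0. Calls used FDR p under 0.4. Exact tests used log2 CPM (prior count 2), with diet and cohort compared over litter means. Both kinds of test were checked on simulated data without litter or cohort structure. The edgeR check was fitted with sex and no surrogate variables, so it does not cover the model with surrogate variables.

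Replicate numbers pair littermates within a diet, as the labels give a shared litter; deviations of littermates from their group means correlated at 0.154 on average over 12 pairs (0.0144 to 0.329, with 9 above 0.1). P-values rest on piglets and litters.

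All 9 members are named. For each, the gene with the highest r is named. From each pathway list at most 2 genes per direction with the smallest p for size and for diet are named, with exceptions marked in the text. The members and lists were chosen with earlier results of these data known. Symbols came from a table of gene identifiers that matched 23036 of 38882 listed genes, 15993 with a symbol. FOLH1, GNB1, NCDN, NEUROD6 and RBFOX3 were not analysed here. A few genes of the pathway lists are not reported here. Intervals and floors at 3 counts cover counting error only where they rest on counts.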

Additional observations from a re-analysis of the deposited data

Results flagged for a closer look

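In 4 of 36 groups of 6 piglets (9 genes in 4 groups), 1 piglet lay apart from the other 5 by Dixon's 95% criterion. About 1 in 20 groups is marked so by chance if values are normally distributed, which low counts need not be. The share over all genes tested was not computed, so the count cannot be read as an excess. GRM8 was at 8.29 CPM in AGA CON replicate 1 and at 11.1 CPM in AGA HF replicate 6. GRIK5 was at 51.5 CPM in AGA CON replicate 2, the lowest of its group, and at 77.4 CPM in SGA CON replicate 4, the highest of its group. All 4 values belong to 2 genes, and AGA CON replicate 2 also had the lowest SLC17A7 of all libraries, as given above.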

How the results depend on the processing

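No member was called for size or diet under any alternative, and none for the interaction apart from GRIK5 without litter 5, where the count was 1 (0 without any other litter). The share of all genes called ran from 0% to 7.75% for size, 0% to 4.66% for diet and 0% to 2.05% for the interaction over these alternatives, each highest without litter 5, so that a count of 0 of 8 has a different background in each. Alternatives were DESeq2, limma voom, RLE size factors, no filter, a filter of 1 CPM in at least 6 libraries, TMM over all listed genes (chosen after seeing the data), sex with or without cohort in place of surrogate variables, each cohort alone, adjustment within a contrast, littermate counts summed by litter, and leaving out each litter. Of the 24 estimates, 5 kept their sign in all 11 other fits, those of GRIK2 and GRIK3 for size and GRM3, GRM8 and GRIK1 for diet, and 4 also without each litter (not GRIK2). The rest changed sign in at least 1 fit, and the cause was not tested. With the replicate block (litter), which pairs littermates, the sign of the size estimate changed for GRM7 (0.11), GRM8 (0.18), GRIK1 (-0.021) and GRIK5 (0.0074), on the log2 scale as below, that of the interaction for GRIK2 (-0.048) and GRIK4 (0.029), and no call of a member changed. With sex and no surrogate variables the 4 size values were 0.11, 0.15, -0.015 and 0.011, GRIK5 for diet was -0.043, and the interaction was -0.0062 for GRIK1, -0.051 for GRIK2 and 0.025 for GRIK4. With sex and cohort in place of surrogate variables they were 0.11, 0.14, -0.015 and 0.0098, with GRIK5 for diet at -0.042 and the interaction at -0.0078 for GRIK1, -0.047 for GRIK2 and 0.026 for GRIK4. With the filter of 6 libraries the GRIK3 interaction was -0.0077. With littermate counts summed, GRIK5 for diet was -0.036.

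In cohort 1 alone GRM8 (0.094) and GRIK1 (-0.040) changed sign for size, GRIK2 (0.083) and GRIK4 (0.026) for diet, and GRM3 (0.147) and GRIK5 (-0.090) for the interaction. In cohort 2 alone GRM3 (0.047), GRM7 (0.25), GRM8 (0.185), GRIK1 (-0.0090), GRIK4 (0.14) and GRIK5 (0.11) did for size, GRM7 (-0.088), GRIK3 (0.024) and GRIK5 (-0.098) for diet, and GRM7 (0.018), GRM8 (-0.80), GRIK1 (-0.21), GRIK2 (-0.29), GRIK3 (-0.058) and GRIK4 (0.17) for the interaction. Without each litter in turn, size estimates that crossed 0 ranged from -0.18 to 0.024 for GRM7, -0.20 to 0.32 for GRM8, -0.045 to 0.12 for GRIK1, -0.0016 to 0.11 for GRIK2, -0.060 to 0.031 for GRIK4 and -0.096 to 0.084 for GRIK5. Diet estimates ranged from -0.077 to 0.039 for GRIK4 and -0.072 to 0.082 for GRIK5, and interaction estimates from -0.14 to 0.030 for GRM3, -0.40 to 0.58 for GRM8, -0.100 to 0.19 for GRIK1, -0.103 to 0.061 for GRIK2, -0.104 to 0.18 for GRIK3, -0.20 to 0.034 for GRIK4 and -0.0079 to 0.29 for GRIK5. The diet count by litter means went from 1 to 0 with RLE size factors and to 0 with litters exchanged within cohorts. The cohort count went from 1 to 2 without litter 2, beside 13.3% of all genes, and was 1 without any other litter, beside 10.3% to 13%. By CPM in place of RPKM, 7 of the 9 genes changed rank, GRIK3 coming first. Of the 9 genes, GRM5, GRM8 and GRM7 had the fewest reads (110, 968 and 1152 in total) and the largest counting error. The part of depth in their spread was not tested.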
